A study of Homo sapiens with 18 samples.

Results

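HIF1A and 9 genes known as targets of hypoxia-inducible factors were followed across an siRNA experiment in RKO, a colorectal cancer cell line of human origin. The 10 genes are HIF1A, SLC2A1, PDK1, CA9, VEGFA, BNIP3, NDRG1, ADM, EGLN3 and P4HA1, and they were found by matching the RefSeq transcript of each row to its symbol, which gave 10 of 20802 genes listed. The study asked how transcription responds when ESCRT-I, an endosomal sorting complex that contains TSG101 and VPS28, is depleted. Cells received 30 nM siRNA and were collected after 72 h. There were 6 groups of 3 replicates each. TSG101 was targeted by siTsg101#1 or siTsg101#2, VPS28 by siVps28#1 or siVps28#2, and siCtrl#1 and siCtrl#2 had no target. All groups, controls included, thus carried an siRNA, and no group was exposed to low oxygen according to the labels. The replicate number is named as the batch in the labels, and each batch holds 1 library of every siRNA.

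Hypoxia-inducible factors are pairs of an alpha subunit (HIF1A or EPAS1) and a beta subunit such as ARNT. In the presence of oxygen, prolyl hydroxylases of the EGLN family mark the alpha subunit, VHL binds it and the proteasome removes it, so that the pathway is governed largely at the protein level and the HIF1A mRNA need not follow its activity. The stabilised factor binds a short core sequence near genes of glucose uptake, glycolysis, pH control, vessel growth and mitophagy.

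Between 2561790 and 7466916 reads were counted on genes in each library, and levels are given as CPM, counts scaled to the size of the library after TMM normalization. Each gene was read through the panel's own amplicon, so that levels were compared between samples and never between genes. TSG101 fell by 4.84 on the log2 scale with siTsg101#1 and fell by 5.10 with siTsg101#2 (adjusted p 1.51e-09 and 4.08e-10). VPS28 fell by 4.15 with siVps28#1 and fell by 4.07 with siVps28#2 (adjusted p 1.74e-11 and 4.71e-12, all by edgeR's quasi-likelihood test). Of 7 colorectal epithelial markers, 4 reached 1 CPM in some library (EPCAM, KRT8, KRT18 and CDX2), while KRT19, CDH1 and VIL1 did not. Of the 15 markers of fibroblasts, leukocytes and endothelium, COL1A1 (at most 1.54 CPM) and CD68, a lysosomal glycoprotein (515 to 1666 CPM), were the exceptions that reached 1 CPM, and the leukocyte markers PTPRC, CD3E and LYZ had no read. In such bulk samples a smaller share of cells that express a gene cannot be told apart from less RNA per cell.

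PDK1, a kinase that inhibits pyruvate dehydrogenase, was called as changed with more siRNAs than any other member. Its level was 10.9, 7.68 and 6.67 CPM in the 3 libraries of siCtrl#1 and 7.33, 8.91 and 9.44 CPM in those of siCtrl#2. With siTsg101#1 it stood at 27.8, 20.5 and 25.4 CPM, and with siTsg101#2 at 18.7, 20.9 and 18.3 CPM. Every library of the siTsg101 groups lay above every control library. With siVps28#1 the values were 15.7, 13.2 and 9.84 CPM, and with siVps28#2 they were 18.7, 11.9 and 17.2 CPM. The siVps28#1 group overlapped siCtrl#1 through its replicate 3, whereas siVps28#2 did not.

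Over the mean of the 4 on-target siRNAs, PDK1 rose by 1.07 ± 0.20 (log2, SE) relative to siCtrl#1, with an adjusted p of 0.000408 by edgeR's quasi-likelihood test. Changes of at least 1.5-fold whose adjusted p was under 0.05 were called, and PDK1 was the only one of 8 tested members called in this comparison, in which 15.1% of all 10213 tested genes were called. Singly, PDK1 rose by 1.54 ± 0.24 with siTsg101#1 (adjusted p 4.5e-05), by 1.20 ± 0.23 with siTsg101#2 (0.00078) and by 0.93 ± 0.24 with siVps28#2 (0.00912). For siVps28#1 the difference was 0.61 ± 0.25 and did not pass (adjusted p 0.131). Within replicate numbers, PDK1 was higher than in siCtrl#1 in 3 of 3 replicates for each of the 4 siRNAs. The call for siVps28#2 was lost without replicate 1 of that group (0.79, adjusted p 0.0513) or without replicate 3 of siCtrl#1 (0.76, adjusted p 0.0663). These 4 comparisons share the siCtrl#1 libraries and are not independent of each other.

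The direct comparison of the siTsg101 groups with the siVps28 groups uses no control library. PDK1 was higher after TSG101 than after VPS28 depletion by 0.60 ± 0.16 (log2, adjusted p 0.0127 by edgeR's quasi-likelihood test), just above the 1.5-fold bound, and it was again the only member called, beside 6.23% of all tested genes. Without replicate 1 of siTsg101#1 (0.56), replicate 2 of siTsg101#2 (0.57), replicate 3 of siVps28#1 (0.52) or replicate 2 of siVps28#2 (0.52), the PDK1 difference was under 1.5-fold with an adjusted p still under 0.05. The PDK1 locus lies on chromosome 2 at 173420101 to 173473397 (GRCh37), and 445 of its exon bases are overlapped by the antisense gene PDK1-AS1. How the counting treated strand is not given in the sources used here, so that reads of this stretch could belong to either gene.

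**Figure D1:**
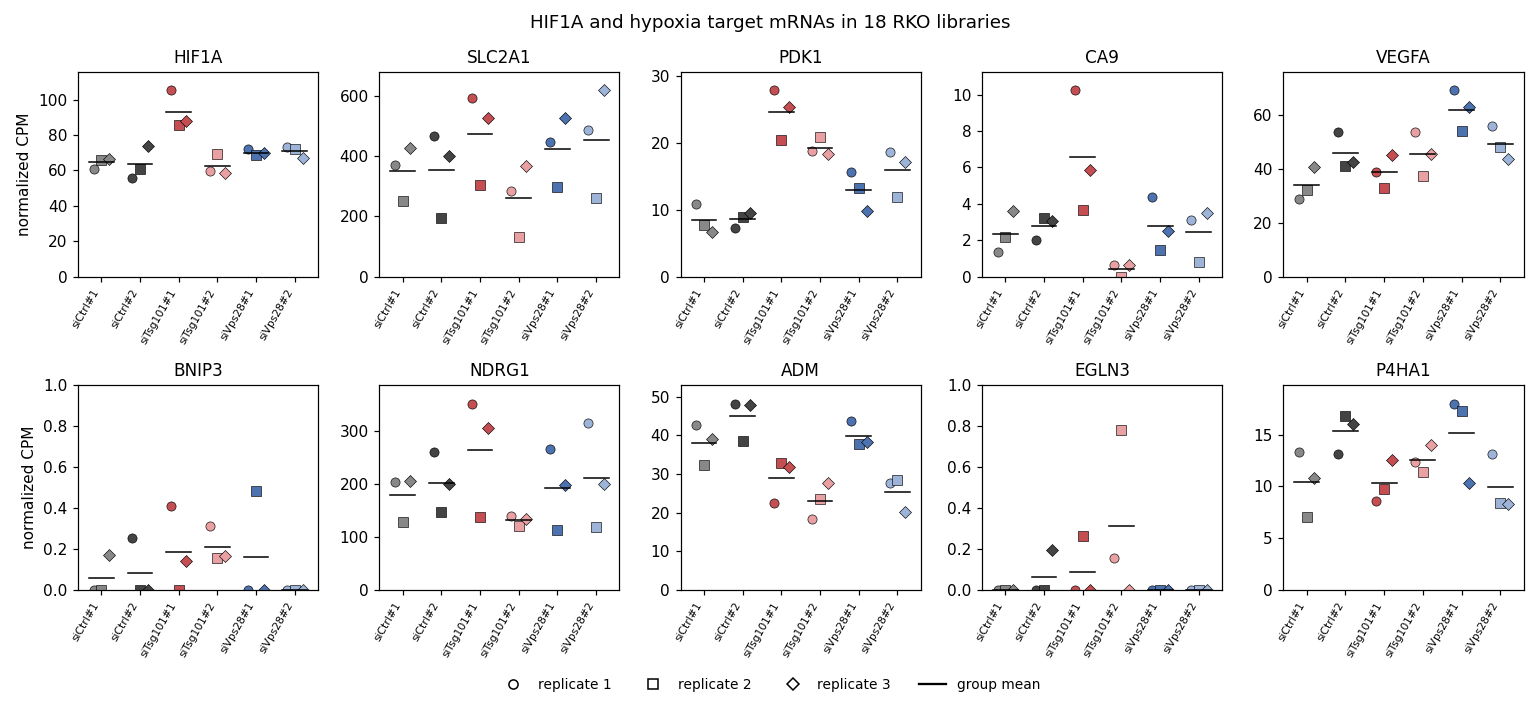
Level of each member (TMM-normalized CPM, linear axis from 0, own range per panel) in the 18 libraries by siRNA group, with a symbol per replicate number and a bar at the group mean of 3 libraries. PDK1 lies higher in both siTsg101 groups than in every control library, CA9 separates the 2 siTsg101 groups, replicate 2 is lowest in every group for SLC2A1 and NDRG1, and BNIP3 and EGLN3 stay under 1 CPM.

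HIF1A itself, the alpha subunit of the factor, was at 60.9, 66.1 and 66.5 CPM in siCtrl#1 and at 55.8, 60.7 and 73.8 CPM in siCtrl#2. Under siTsg101#1 it was 105, 85.5 and 88.2 CPM, above all other libraries of the series. Under siTsg101#2 it was 59.9, 69.4 and 58.3 CPM, within the range of the controls. The siVps28#1 libraries held 72.0, 68.7 and 69.6 CPM and the siVps28#2 libraries 73.4, 72.4 and 67.0 CPM, above siCtrl#1 but within the range of siCtrl#2.

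The HIF1A difference to siCtrl#1 was 0.52 ± 0.15 on the log2 scale with siTsg101#1 (adjusted p 0.0106, edgeR's quasi-likelihood test), which is under 1.5-fold and was therefore not called. With siTsg101#2, siVps28#1 and siVps28#2 it was -0.04, 0.12 and 0.14 (adjusted p 0.87, 0.696 and 0.593). The mean over the 4 siRNAs was 0.18 (95% interval -0.06 to 0.43). Without replicate 2 of siTsg101#1 the HIF1A value reached 0.59 and would be called. HIF1A is on chromosome 14 at 62162231 to 62214977 (GRCh37), where 432 of its exon bases overlap antisense genes and 148 overlap a gene on the same strand.

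CA9, a membrane carbonic anhydrase of pH control and a widely used marker of HIF activity, was read at low depth, with 0 to 42 counts per library. In siCtrl#1 it had 6, 7 and 21 counts (1.36, 2.15 and 3.59 CPM), and in siCtrl#2 it had 8, 13 and 16 counts (2.02, 3.22 and 3.08 CPM). With siTsg101#1 it had 25, 14 and 42 counts (10.2, 3.67 and 5.86 CPM), and with siTsg101#2 it had 4, 0 and 4 counts (0.62, 0 and 0.66 CPM). The siTsg101#1 libraries were thus all above, and the siTsg101#2 libraries all below, every control library. With siVps28#1 the CA9 level was 4.35, 1.44 and 2.52 CPM, and with siVps28#2 it was 3.09, 0.83 and 3.47 CPM, both overlapping the controls.

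Relative to siCtrl#1, CA9 fell by 2.46 ± 0.71 on the log2 scale with siTsg101#2 (adjusted p 0.0162, edgeR's quasi-likelihood test). With siTsg101#1 the CA9 difference was 1.34 ± 0.50, with an adjusted p of 0.0502, and 1.36 with an adjusted p of 0.0212 when the replicate number was a block, which is a call. The call with siTsg101#2 was lost without its replicate 2 (-1.90, adjusted p 0.0713) or without replicate 3 of siCtrl#1 (-1.96, adjusted p 0.123). CA9 is on chromosome 9 at 35673925 to 35681156 (GRCh37), with 571 exon bases overlapped by the antisense gene ARHGEF39. ARHGEF39, named here for this overlap after its values were seen, differed between the siTsg101 siRNAs by -1.09 on the log2 scale (adjusted p 0.0832), opposite in sign to CA9.

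The siRNAs against the same subunit were therefore compared with each other, a comparison added after the data had been seen. CA9 was higher with siTsg101#1 than with siTsg101#2 by 3.81 ± 0.63 (95% interval 2.51 to 5.11, adjusted p 0.00042 by edgeR's quasi-likelihood test). Within replicates 1, 2 and 3 it was higher by 3.26, 3.06 and 2.45, after a small constant was added to each CPM. The sizes of these 3 values depend on that constant, since CA9 was under 1 CPM with siTsg101#2 and had a count of 0 in its replicate 2. It was the only one of 8 tested members called, against 6.98% of all tested genes. It stayed called when any of the 18 libraries was left out, with values from 3.25 to 4.25. HIF1A differed by 0.57 ± 0.15 in the same direction (adjusted p 0.0165), under 1.5-fold. Between siVps28#1 and siVps28#2 no member was called by edgeR or by DESeq2, beside 0.48% of all genes, and at an unadjusted p under 0.05 there were 2 members, ADM (0.65) and P4HA1 (0.60).

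SLC2A1, the main glucose transporter of most cells, and NDRG1, a stress-responsive growth regulator, moved with the replicate number. SLC2A1 was at 372, 252 and 425 CPM in replicates 1, 2 and 3 of siCtrl#1, at 468, 195 and 400.3 in siCtrl#2, at 591, 303 and 526 with siTsg101#1 and at 283, 132 and 365 with siTsg101#2. With siVps28#1 the SLC2A1 level was 445, 298 and 526 CPM, and with siVps28#2 it was 485, 259.7 and 617 CPM. Replicate 2 was the lowest in all 6 groups, by 0.96 on the log2 scale relative to the mean of replicates 1 and 3 (adjusted p for any effect of the replicate number 4.88e-05, edgeR's quasi-likelihood test). NDRG1 also had replicate 2 as the lowest in 6 of 6 groups, with a value of -0.80 (adjusted p 0.000709). Of all tested genes, 4.59% passed this test.

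NDRG1 levels in replicates 1, 2 and 3 were 204, 128 and 205 CPM in siCtrl#1 and 259.9, 147 and 199 CPM in siCtrl#2. They were 351, 137 and 304 CPM with siTsg101#1 and 139, 120.0 and 134 CPM with siTsg101#2. With siVps28#1 the NDRG1 libraries held 265, 113 and 198 CPM, and with siVps28#2 they held 314, 118 and 199 CPM. For both genes each on-target group overlapped siCtrl#1, and neither gene passed the test against siCtrl#1 with any siRNA in the fit without the block. Within replicate numbers SLC2A1 was lower than in siCtrl#1 in 3 of 3 replicates with siTsg101#2 and higher in 3 of 3 with each of the other on-target siRNAs. With the block the SLC2A1 difference to siCtrl#1 was -0.51 with siTsg101#2 (adjusted p 0.0246) and the NDRG1 difference 0.50 with siTsg101#1 (adjusted p 0.0464, edgeR's quasi-likelihood test), both under 1.5-fold and so not called.

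With the replicate number as a block, SLC2A1 was higher with siTsg101#1 than with siTsg101#2 by 0.92 ± 0.16 (adjusted p 0.000692, against 0.86 ± 0.35 and 0.14 without the block, both by edgeR's quasi-likelihood test). Likewise NDRG1 differed by 0.89 ± 0.19 with the block (adjusted p 0.00312) and by 1.01 ± 0.33 without it (adjusted p 0.0632). Within replicates 1, 2 and 3 the SLC2A1 difference was 1.06, 1.20 and 0.53, and the NDRG1 difference 1.33, 0.19 and 1.18. The blocked test thus called 3 members in this comparison, CA9, SLC2A1 and NDRG1, all higher with siTsg101#1, beside 9.04% of all tested genes. Of the CA9 transcript, 29.8% of its 50-base stretches are shared with another annotated gene, ARHGEF39. For NDRG1 17.9% are shared with other annotated genes, and for SLC2A1 13.4%.

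**Figure D2:**
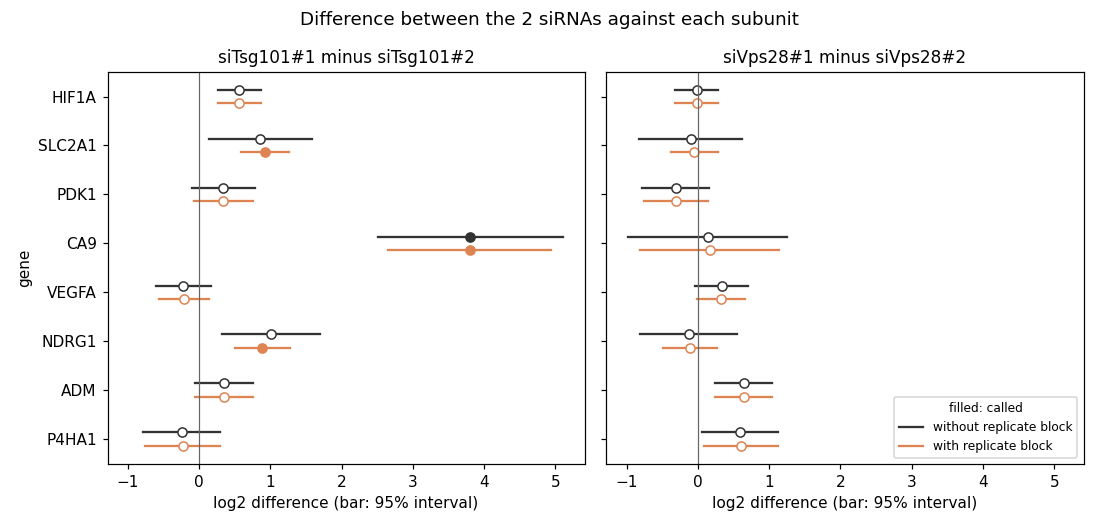
Difference (log2, point) and its 95% interval (bar) for the 8 tested members between the siRNAs against TSG101 (left) and against VPS28 (right), without and with the replicate number as a block, with filled points for called differences. CA9 is called at left in both fits (3.81 and 3.80), SLC2A1 and NDRG1 with the block alone, and no member is called at right.

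Among the secreted members, VEGFA, the main growth factor of vessel endothelium, was at 28.8, 32.3 and 40.7 CPM in siCtrl#1 and at 53.8, 41.1 and 42.6 CPM in siCtrl#2. With siVps28#1 it was at 69.1, 54.0 and 63.0 CPM, above all libraries of both control groups. With siVps28#2 it was at 55.9, 48.2 and 43.6 CPM, with siTsg101#1 at 38.9, 32.8 and 45.2 CPM, and with siTsg101#2 at 53.8, 37.4 and 45.5 CPM. VEGFA rose by 0.86 ± 0.19 with siVps28#1 (log2, adjusted p 0.00422, edgeR's quasi-likelihood test), where it was the 1 member called beside 8.67% of all genes. This call was lost against siCtrl#2 (0.44, adjusted p 0.212), and siCtrl#2 itself differed from siCtrl#1 by 0.43 (adjusted p 0.289). The VEGFA mean over the 4 siRNAs was 0.50 ± 0.15 (adjusted p 0.0188), under 1.5-fold, and 0.08 against siCtrl#2 (adjusted p 0.776). It passed 1.5-fold, at 0.66, without replicate 3 of siCtrl#1.

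ADM, which encodes the vasodilator peptide adrenomedullin, was called lower with siTsg101#2 and siVps28#2. It was at 42.8, 32.3 and 39.2 CPM in siCtrl#1 and at 48.3, 38.6 and 48.0 CPM in siCtrl#2. With siTsg101#2 it was at 18.3, 23.5 and 27.6 CPM, and with siVps28#2 at 27.6, 28.6 and 20.1 CPM, both below all control libraries. With siTsg101#1 it was at 22.5, 32.8 and 31.8 CPM, overlapping siCtrl#1, and with siVps28#1 at 43.8, 37.7 and 38.2 CPM, within the controls.

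ADM fell by 0.73 ± 0.19 with siTsg101#2 (adjusted p 0.00994) and by 0.59 ± 0.19 with siVps28#2 (adjusted p 0.0421, edgeR's quasi-likelihood test). With siTsg101#2, where PDK1, CA9 and ADM passed, 3 of 8 tested members were called beside 17% of all genes. With siVps28#2, where PDK1 and ADM passed, 2 of 8 were called beside 13.3%, and with siTsg101#1, where PDK1 passed, 1 of 8 beside 21.8%. The ADM value with siVps28#2 lies close to the 1.5-fold bound, and the call was lost in 11 of the 18 fits that left out a library, with values from -0.69 to -0.45, and with the replicate block (-0.58). The ADM call with siTsg101#2 was lost without its replicate 1 (-0.58, adjusted p 0.0686). With siTsg101#1 the ADM difference was -0.38 (adjusted p 0.164), and against siCtrl#2 it was -0.61 (adjusted p 0.0297), which is a call.

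P4HA1, a collagen prolyl hydroxylase subunit, was at 13.4, 7.07 and 10.8 CPM in siCtrl#1, at 13.1, 16.8 and 16.0 CPM in siCtrl#2 and between 8.33 and 18 CPM in the other 12 libraries. It was not called with any siRNA, and its mean over the 4 on-target siRNAs was 0.17 (adjusted p 0.605, edgeR's quasi-likelihood test). Each on-target group overlapped siCtrl#1. Between the control siRNAs no member was called by edgeR or DESeq2, beside 2.09% of all genes, and VEGFA was the 1 member with an unadjusted p under 0.05.

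BNIP3, a mitophagy receptor, had 0 to 2 counts per library and 10 in all. EGLN3, the prolyl hydroxylase that is itself a HIF target, had 0 to 5 counts and 8 in all. Both were under the minimum of 100 counts summed over libraries and were not tested, and a change in them was not detectable at this depth. A count of 3, the limit that a count of 0 allows, corresponds to 0.402 to 1.17 CPM in these libraries and covers counting error only.

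**Figure D3:**
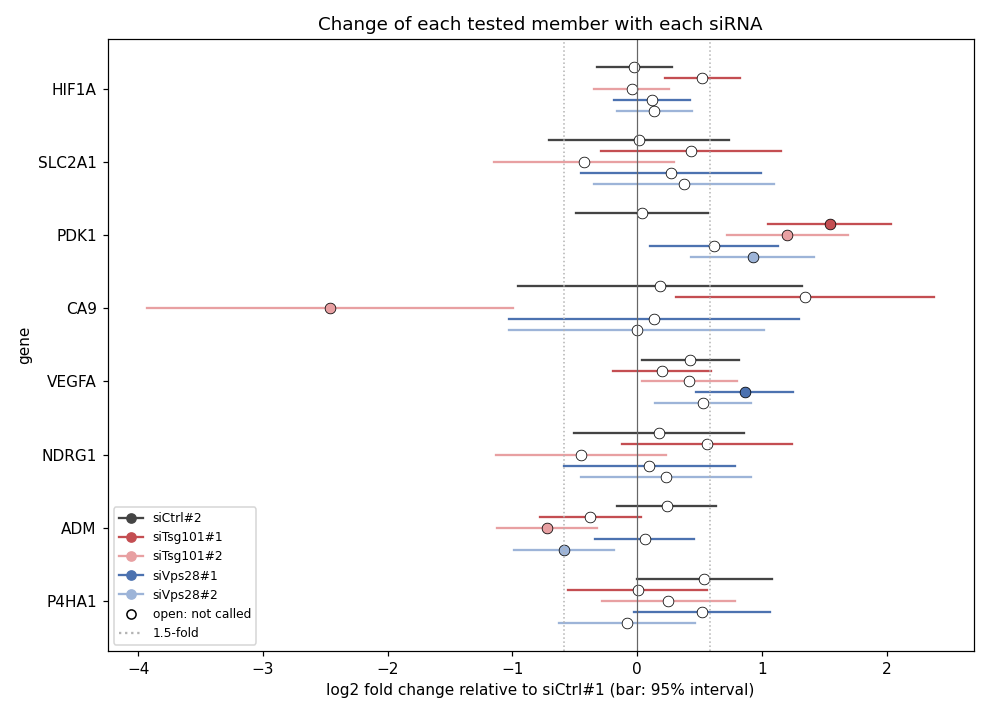
Log2 fold change relative to siCtrl#1 (point) with its 95% interval (bar) for 8 tested members and 5 siRNAs, siCtrl#2 included, with filled points for called changes and dotted lines at 1.5-fold. PDK1 is called with 3 of the 4 on-target siRNAs (1.54, 1.20 and 0.93), CA9 falls by 2.46 with siTsg101#2, and the siCtrl#2 points are all open.

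The HIF core sequence, ACGTG or GCGTG read on either strand (CACGT or CACGC on the other), was searched in the 250 bases before each start site of the RefSeq promoters (GRCh38.p14). Of 35116 promoters, 43.2% held at least 1 core, with each start site counted singly, whereas the members below are counted by gene. Of the 10 members, 8 are reported here, with 10 start sites in all, and 6 of these 8 held a core at 1 or more of them. VEGFA and NDRG1 are named only. SLC2A1 and EGLN3 held none of these letters in this window. The stretches of 60 bases around the core are shown for PDK1, CA9 and ADM, the called members with a core, and for BNIP3, which held 6 cores while it was barely read. The capitals mark the cores.
PDK1 (chr2:172556030-172556089, plus strand): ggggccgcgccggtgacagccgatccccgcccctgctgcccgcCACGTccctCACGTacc
CA9 (chr9:35673868-35673927, plus strand): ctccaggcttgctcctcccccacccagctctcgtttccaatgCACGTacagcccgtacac
ADM (chr11:10304944-10305003, plus strand): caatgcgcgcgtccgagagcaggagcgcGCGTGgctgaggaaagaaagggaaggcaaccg
BNIP3 (chr10:131982015-131982074, minus strand): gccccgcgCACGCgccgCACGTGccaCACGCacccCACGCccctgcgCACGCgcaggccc

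PDK1 carried 2 cores, 17 and 8 bases before its start, at 1 of its 2 start sites, and CA9 carried 1 core 18 bases before its start. The single ADM core lay 101 bases before its start. In BNIP3 a pair of cores on opposite strands overlap in CACGTG, which also holds the letters of the E-box read by bHLH factors. Of all promoters, 19.4% held 2 or more cores and 0.646% held 6 or more. A core is a match of letters and says nothing on its own about binding.

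The members were set within a wider hypoxia list of 77 genes that includes all of them. Of these 77, 75 were matched on the panel and 63 were tested. In the mean over the 4 on-target siRNAs 9 of the 63 rose (14.3%, beside 8.56% of all tested genes), none fell, and the median over the list was 0.10 on the log2 scale against -0.0034 for all genes. Without the members, 8 of 55 tested list genes rose (14.5%) and the median was 0.046. By role, 4 of 8 tested genes of chromatin and transcription rose (BHLHE40, KDM3A, KDM4C and WSB1), 4 of 21 of glucose uptake and glycolysis (ALDOC, PDK1, PDK3 and SLC2A3) and 1 of 15 HIF subunits and oxygen sensors (EPAS1). No gene of pH control and secreted factors (0 of 8), collagen modification (0 of 5) or mitophagy and growth arrest (0 of 6) was called. By DESeq2 the list also had 9 calls, a count not set beside the share of all tested genes in that fit. Against siCtrl#1 no call in the mean was found for the glycolytic enzymes GAPDH, ENO1, LDHA, PGK1 and TPI1. Against siCtrl#2 LDHA was called (0.63, adjusted p 0.0159, edgeR's quasi-likelihood test), but its level in siCtrl#2 (328 CPM) was below that in siCtrl#1 (561 CPM).

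EPAS1, the second oxygen-regulated alpha subunit, was at 3.10 ± 0.51 CPM in siCtrl#1, 5.90 ± 0.68 in siCtrl#2, 10.4 ± 2.06 and 9.60 ± 0.25 under siTsg101#1 and siTsg101#2, and 6.99 ± 1.31 and 12.02 ± 2.68 under siVps28#1 and siVps28#2 (mean ± SD, n = 3 libraries). It rose by 1.63 ± 0.24 in the mean over the 4 siRNAs (adjusted p 2.63e-05, edgeR's quasi-likelihood test), and the difference of siCtrl#2 from siCtrl#1 was 0.94 (adjusted p 0.107). Against siCtrl#2 the EPAS1 value was 0.70 (adjusted p 0.0242), still called. ARNT (0.09), VHL (0.03), EGLN1 (0.14), EGLN2 (0.21), HIF1AN (-0.01), CREBBP (-0.08), ARNT2 (-0.23), CUL2 (-0.26), RBX1 (-0.20) and ELOC (-0.03) were not called. ELOB, a subunit of the VHL ligase, had a mean difference of -0.48 (adjusted p 0.00919), under 1.5-fold, and it was called with siVps28#2 alone (-0.75). Against siCtrl#2 the ELOB mean difference was -0.16 (adjusted p 0.468). EP300, a HIF coactivator, rose by 0.70 with each siTsg101 siRNA (adjusted p 0.0427 and 0.0423), and SIAH2 fell by 0.67 with siTsg101#2 (adjusted p 0.0352). SIAH2 stood at 30.6 CPM with siTsg101#1, where it was not called, and at 29.5 CPM with siTsg101#2. In the mean against siCtrl#1 neither EP300 nor SIAH2 was called. Nor was either called in the mean against siCtrl#2 (EP300 0.21, adjusted p 0.526, and SIAH2 -0.35, adjusted p 0.185).

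BHLHE40, a transcriptional repressor of the circadian and hypoxic responses, rose by 1.60 ± 0.21 (adjusted p 1.01e-05, edgeR's quasi-likelihood test), and 0.98 against siCtrl#2 (adjusted p 0.00159). With the replicate block siCtrl#2 was itself above siCtrl#1 by 0.63 for BHLHE40 (adjusted p 0.0365), a call that the fit without the block did not make (0.62, adjusted p 0.222). SLC2A3, a glucose transporter, rose by 1.41 ± 0.15 (adjusted p 4.75e-07), but siCtrl#2 was also above siCtrl#1 by 0.99 (adjusted p 0.00197). WSB1, a ubiquitin ligase subunit, rose by 1.30 ± 0.18, and with siCtrl#2 by 1.44 (adjusted p 0.000366). PDK3, the kinase related to PDK1, rose by 1.36 ± 0.46 (adjusted p 0.035) from 1.32 CPM in siCtrl#1, KDM3A and KDM4C, both histone demethylases, by 0.87 and 0.67, and ALDOC, an aldolase, by 0.65. With siCtrl#2 as the reference 6 list genes rose and 3 fell, counts not set beside the share of all tested genes under this reference. Of the 9 genes that rose against siCtrl#1, 4 were among those that rose, namely ALDOC, BHLHE40, EPAS1 and PDK1. They were joined by LDHA and by PGF, a growth factor of the VEGF family (0.63, adjusted p 0.00518). For LDHA and PGF siCtrl#2 had the lowest mean of the 6 groups. LDHA was at 328 CPM there against 561 in siCtrl#1, and PGF at 34.75 against 50.2. With the replicate block the LDHA difference of siCtrl#2 from siCtrl#1 was -0.74 (adjusted p 0.0175). The other 5 of the 9, KDM3A (0.08), KDM4C (0.33), PDK3 (0.96), SLC2A3 (0.42) and WSB1 (-0.14), were not called against siCtrl#2. Beside them ADM fell by 0.64 against siCtrl#2 (adjusted p 0.00358).

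**Figure D4:**
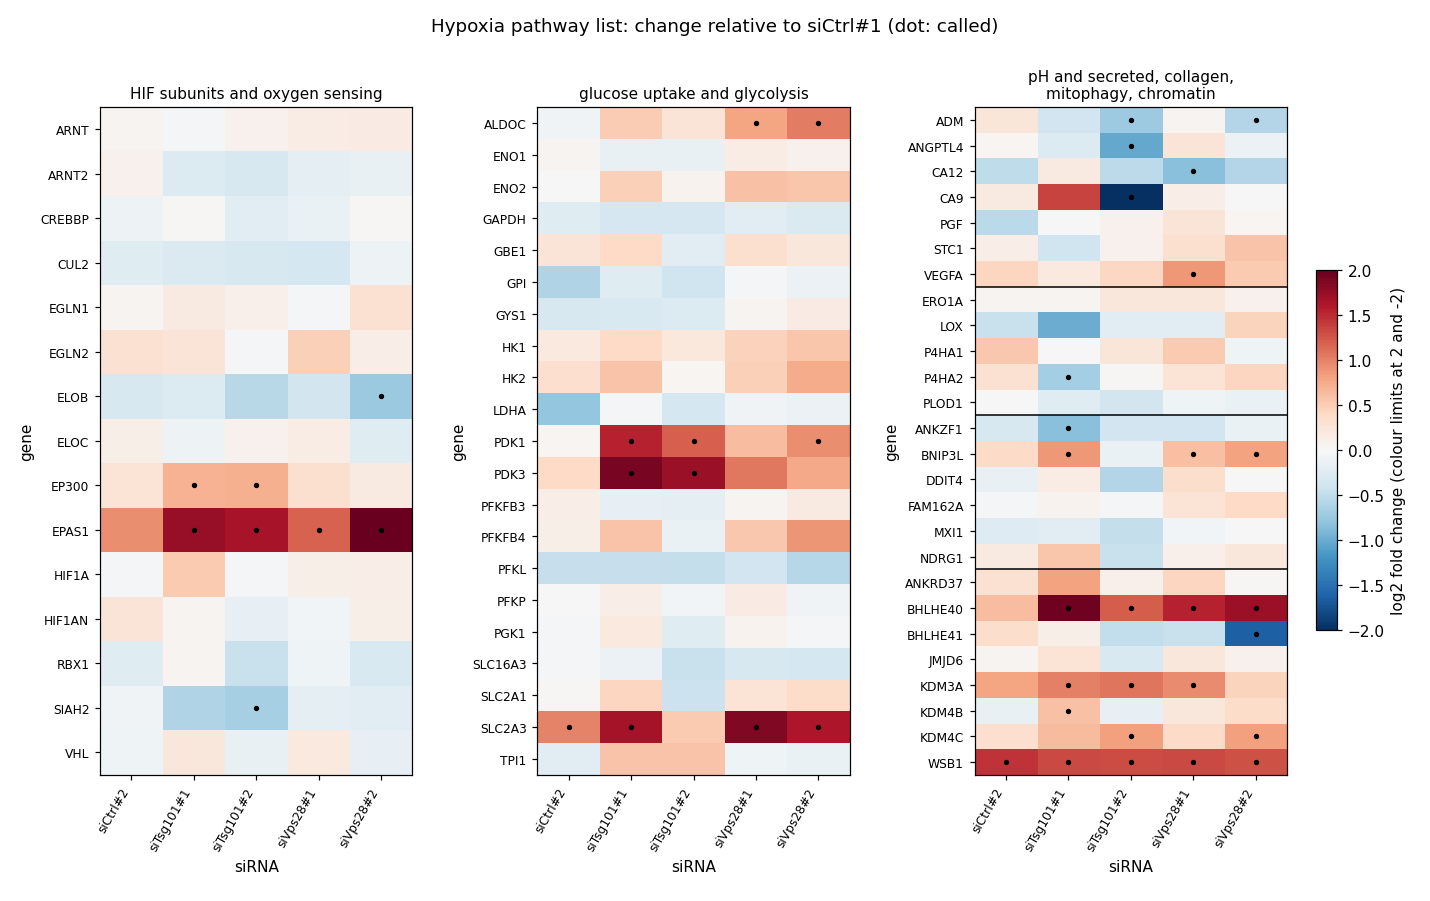
Log2 fold change relative to siCtrl#1 (colour, limited at 2 and -2) of 62 tested list genes with siCtrl#2 and the 4 on-target siRNAs, by role, with a dot where a change was called. EPAS1 and BHLHE40 are called with all 4 on-target siRNAs and, in this fit without the block, not with siCtrl#2, whereas WSB1 is called in all 5 columns.

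The list also separated the siTsg101 siRNAs. Of its 63 tested genes, 49 had a higher value with siTsg101#1 than with siTsg101#2 (77.8%, beside 48.2% of all tested genes), and the median difference was 0.23 against -0.017. Called as higher were 7 genes (11.1%, beside 3.11% of all genes), among them CA9, SLC2A3 (1.14), BNIP3L (0.99), ANGPTL4 (0.75), KDM4B (0.75) and CA12 (0.70), while P4HA2 was lower (-0.71). Without the members, 43 of 55 had a higher value (78.2%), with a median of 0.19, and 6 were called as higher (10.9%). Between the siVps28 siRNAs no list gene was called by edgeR and the median was 0.05. Genes of a list are not independent replicates, and these counts are a description of the 6 libraries of the siTsg101 groups.

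Across the 18 libraries, genes whose level followed HIF1A closely included ATP2A2 (Pearson r 0.86), PPP2R2A (0.85), BCL6 (0.82) and EFNA1 (0.81). These points share library depth, siRNA group and the high siTsg101#1 libraries, and the values are given as a description. Among the members r with HIF1A was 0.59 for PDK1, 0.59 for CA9, 0.41 for NDRG1, 0.30 for SLC2A1, -0.12 for VEGFA, -0.20 for ADM and -0.30 for P4HA1.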

How the data were processed

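RKO cells of 6 siRNA groups were profiled with 3 libraries each, grouped by the labels. The authors prepared Ion AmpliSeq Transcriptome libraries, aligned reads to the panel's hg19 reference and counted them with HTSeq (0.6.0 in the submitters' processing notes), and the deposited values are raw read counts per target. The strand setting of the counting is not given in the sources used here. Of 20802 genes, 20224 were matched to a symbol by RefSeq transcript and 578 were not. Libraries held 2561790 to 7466916 counts on genes, and reads that fell on no gene were left out. The reads carry no molecular identifiers, so that intervals from counts cover counting error only.

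Genes with more than 100 counts summed over libraries were kept (10632), 419 noncoding genes were left out as in the study's methods, and 10213 were tested, 93 of them without a symbol. Counts were normalized by TMM and fitted in 1 model of the 6 groups with edgeR 4.0.16 (limma 3.58.1, R 4.3.3), using the quasi-likelihood test and Benjamini-Hochberg adjustment over all tested genes. Called changes had an adjusted p under 0.05 and a size of at least 1.5-fold. Differences within a replicate number are log2 ratios of CPM after a small constant was added to each. The fit was tested on simulated counts. DESeq2 1.42.0 was an alternative, beside RLE size factors, other filters, other reference groups, the replicate block and each library left out. Comparisons within siTsg101 and within siVps28, and the test of the replicate number, were added after the data were seen. The members, lists and tests were chosen with earlier results of these data known. Named were all members, TSG101 and VPS28, the list genes called in the mean over 4 siRNAs or between siTsg101 and siVps28, HIF subunits and oxygen sensors, and the 5 genes most correlated with HIF1A. Some items are not reported here. Other list genes were named after their values were seen.

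Replicate numbers pair the libraries because the labels call them batches: deviations from group means correlated by 0.145 on average in same-numbered pairs (n = 45) and by -0.0729 in other pairs (n = 90). No library pair agreed within sampling noise. The study describes the replicates as independent experiments, and p-values measure the spread between them. Exon overlaps were read from the GRCh37 annotation and promoters from RefSeq (GRCh38.p14), with no conversion between builds.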

Additional observations from a re-analysis of the deposited data

Results flagged for a closer look

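In the direct test of the siTsg101 against the siVps28 groups, 10 of the 63 tested list genes had an adjusted p under 0.05 (15.9%, beside 11.8% of all tested genes, edgeR's quasi-likelihood test). The 8 given here were named for a call in this comparison or in the mean, so that their number is set by that choice. PDK1 (0.60), BHLHE41 (0.85) and TPI1 (0.68) were higher after TSG101 depletion on the log2 scale. ANGPTL4 (-0.72), P4HA2 (-0.69), SLC2A3 (-0.65), STC1 (-0.60) and ALDOC (-0.52) were lower, ALDOC by under 1.5-fold. TPI1 and ALDOC are glycolytic enzymes, STC1 and ANGPTL4 secreted factors, and P4HA2 a collagen hydroxylase. Between siRNAs against the same subunit, siTsg101#1 and siTsg101#2 differed for the members CA9 (3.81) and HIF1A (0.57), and also for SLC2A3 (1.14), ANGPTL4 (0.75) and P4HA2 (-0.71), which are among the 8. Which of these differences belong to the subunit and which to the single siRNA was not tested. Groups of 3 libraries were too small for a test of outlying samples.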

How the results depend on the processing

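Low counts limit CA9, BNIP3 and EGLN3. Of the alternatives that left out no library, none changed a 1.5-fold call of PDK1 or HIF1A. With siTsg101#1, 2 members were called in place of 1 under DESeq2, without a filter, with siCtrl#2 or both controls as reference, with the replicate block, with only the groups compared and by adjusted p alone. With siVps28#1, 0 were called against siCtrl#2. With siVps28#2, 1 in place of 2 was called without a filter, with at least 10 counts in every library, with the block and with only the groups compared. In the mean, 2 in place of 1 were called against siCtrl#2 and by adjusted p alone, which called 16 list genes in place of 9. The counts in this paragraph were not set beside the share of all tested genes under each setting. They describe only how the calls depend on the processing. Between siTsg101#1 and siTsg101#2, 3 were called without a filter, 3 with the block, 2 with only the groups compared or by adjusted p alone, and 0 with at least 10 counts, where CA9 was not tested. Leaving out 1 library gave 1 to 3 calls with siTsg101#1, 2 to 3 with siTsg101#2, 1 to 1 with siVps28#1, 0 to 2 with siVps28#2, 5 to 8 over the 4 siRNAs, 1 to 2 in the mean, 0 to 1 for siTsg101 against siVps28, 1 to 3 for siTsg101#1 against siTsg101#2, 0 between the siCtrl and between the siVps28 groups, and 6 to 9 list genes.

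The replicate block changed the calls of CA9 with siTsg101#1, ADM with siVps28#2, and SLC2A1 and NDRG1 between the siTsg101 siRNAs, and no other call of a member. None of the values that turned sign was a called one. With siCtrl#2 as reference, signs turned for VEGFA with siTsg101#1 (-0.22) and siTsg101#2 (-0.007), for P4HA1 with siTsg101#1 (-0.54), siTsg101#2 (-0.29), siVps28#1 (-0.022) and in the mean (-0.37), for CA9 (-0.047), NDRG1 (-0.074) and ADM (-0.17) with siVps28#1, and for NDRG1 in the mean (-0.063). With both controls they turned for VEGFA (-0.011) and P4HA1 (-0.27) with siTsg101#1, P4HA1 with siTsg101#2 (-0.021) and in the mean (-0.097), and ADM with siVps28#1 (-0.057). CA9 with siVps28#2 (-0.003) became 0.015 under DESeq2, 0.002 without a filter and 0.003 with the replicate block. Leaving out a library, values that turned ranged from -0.043 to 0.15 for ADM, -0.30 to 0.65 for CA9 and -0.20 to 0.37 for NDRG1 with siVps28#1, from -0.33 to 0.51 for CA9, -0.18 to 0.52 for NDRG1 and -0.33 to 0.13 for P4HA1 with siVps28#2, from -0.19 to 0.21 for P4HA1 with siTsg101#1, from -0.53 to 0.27 for CA9, -0.086 to 0.21 for NDRG1, -0.019 to 0.37 for P4HA1 and -0.028 to 0.32 for SLC2A1 in the mean, and from -0.26 to 0.094 for NDRG1 and -0.20 to 0.033 for P4HA1 between siTsg101 and siVps28. The cause was not tested.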
